A study of Ganoderma lucidum with 6 samples.

Results

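Cytochrome P450 enzymes are heme proteins that insert an oxygen atom into sterols, terpenoids, fatty acids and foreign compounds. They take electrons from NADPH through a reductase partner, and cytochrome b5 can pass on electrons as well. Wood-decaying basidiomycetes carry large P450 families, and in Ganoderma lucidum, a medicinal mushroom, P450 enzymes are known to oxidise the lanosterol skeleton into ganoderic acids. The members described here are the gene models whose KOG entry (a classification of proteins by eukaryotic orthologous group) names the cytochrome P450 CYP2 subfamily, 79 of 16113 in the table. The name comes from animal P450 families and gives neither the fungal family nor the substrate of a gene.

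RNA sequencing was carried out on wild-type G. lucidum mycelia sampled at day 3, with (NH4)2SO4 in 3 libraries, called ammonium below (replicates A1 to A3), and NaNO3 in 3, called nitrate (replicates N1 to N3). The groups share the wild-type background and the sampling day, and the salts differ in sulfate and sodium besides the form of nitrogen. The series title speaks of silencing AreA, a transcription factor, and no library used here is labelled as silenced. The labels do not say whether replicates were separate cultures, so the spread behind the p-values may be technical. No gene list that defines mycelium was used, so the tissue label was not checked. In RNA from whole mycelium, fewer hyphae of a kind and less RNA per hypha cannot be told apart.

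Levels are FPKM (fragments per kilobase of transcript and 1000000 fragments) as deposited, given as mean ± SD over 3 libraries. Fold changes compare nitrate with ammonium on the log2 scale, each with its standard error (SE), and come from edgeR's quasi-likelihood test on the counts. A gene is called at a Benjamini-Hochberg adjusted p under 0.05 over all tested genes. Total counts were between 19979528 and 27604895 per library. The largest axis of spread within groups held 63.9% of the within-group variance, and A1 and N1 lay at its opposite ends.

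The other annotation named the same kind of protein, and whether it was assigned independently of the KOG entry is not given. Identifiers for heme binding, iron binding and oxidation with paired donors stood on all 79 members, against 1.30% to 1.70% of all gene models. Of the P450 gene models of the other KOG groups, 124 of 124 carried those for heme and iron binding and 116 that for paired donors. The monooxygenase identifier stood on 77 members. The 2 without it were GL23722-G and GL28081-G. An identifier for aflatoxin biosynthesis, a pathway known from Aspergillus, stood on 72 members and on 0 of the 124 P450 gene models of the other KOG groups. An identifier for steroid hydroxylase activity stood on 21 members. A KEGG entry was given for 29 members, and those 10 entries are of animal P450 enzymes. Gene models spanned a median of 2182 bp. GL21081-G, at 777 bp, and GL20967-G, at 626 bp, were shorter than the other members, which spanned 1571 bp or more.

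On nitrate, 13 of 77 tested members rose and 9 fell. The 2 most abundant members, GL21056-G and GL23153-G, both rose. The called members were 28.6% of those tested, where 15.6% of all tested genes were called. In each direction the shares were 16.9% higher and 11.7% lower among members, against 7.5% and 8.13% over all tested genes. The median log2 fold change of the tested members was 0.03, and that of all tested genes was 0.01. P450 genes of the other KOG groups gave similar shares, with 20 higher and 15 lower of 120 tested, or 29.2%. All 22 called members had groups that did not overlap, as did 14 members that were not called. Groups that did not overlap were seen in 37% of all tested genes. Of the called members, 15 differed by at least 2-fold, 8 of them higher and 7 lower, and 9.14% of all tested genes were called with a difference of that size.

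Leaving out a library changed the counts. They were 5 higher and 6 lower without A2, 4 and 4 without A3, and 6 and 3 without N3. The share called over all genes moved as well, to 6.55%, 5.41% and 5.79%. With A1 and N1 dropped together, an alternative chosen after seeing the data, 22 members were higher and 13 lower, where 19.6% and 21% of all genes were. Because the libraries were picked from these same data, that fit can overstate significance. The calls of 6 of the 22 called members, GL21057-G, GL23153-G, GL20706-G, GL21081-G, GL24953-G and GL31757-G, held in each of the 6 fits without 1 library. So did 568 of the 1874 calls over all genes and 15 of the 35 calls in the other P450 groups.

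Most members were expressed at a low level. The mean over all 6 libraries was under 1 FPKM in 11 members, from 1 to 10 FPKM in 47, from 10 to 100 FPKM in 15 and above that in 6, with a median of 4.69 FPKM. Among tested genes alone, the median was 4.81 FPKM in the members, 7.98 FPKM in the other P450 groups and 12.6 FPKM over all genes. GL21056-G and GL23153-G ranked 26 and 35 by mean FPKM among all genes of the table, and the next member, GL28071-G, ranked 287.

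GL21056-G lies on the minus strand of scaffold 12 at 386166 to 388347. It stood at 747, 1312 and 1140 FPKM in A1 to A3 and at 3988, 2653 and 2943 FPKM in N1 to N3. Every nitrate library was above every ammonium library, and replicate 1 was the lowest of its group in ammonium and the highest in nitrate, as on the within-group axis. The group levels were 1066 ± 290 and 3195 ± 702 FPKM (log2 fold change 1.57 ± 0.31 SE, adjusted p = 0.0143, edgeR). Without A3 the adjusted p was 0.0619.

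GL23153-G lies on the minus strand of scaffold 24 at 408450 to 411111. Its levels were 1143, 1219 and 931 FPKM in ammonium and 3230, 2787 and 2682 FPKM in nitrate. The 3 libraries of each group lay close together and far from the other group (log2 fold change 1.40 ± 0.21 SE, adjusted p = 0.00581, edgeR). Its model overlaps that of the undescribed GL16540-G, on the opposite strand, by 104 bp. Whether counting used strand is not given in the sources used here. GL16540-G stood at 5.70 ± 0.652 and 10.4 ± 3.50 FPKM, far below GL23153-G.

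Together the 79 members held 0.423%, 0.572% and 0.563% of the summed FPKM in A1 to A3 and 1.20%, 0.927% and 0.888% in N1 to N3. The groups did not overlap. GL21056-G and GL23153-G together held 0.224%, 0.324% and 0.268% in ammonium and 0.967%, 0.669% and 0.681% in nitrate. The other 77 members together held 0.247 ± 0.0479% in ammonium and 0.233 ± 0.0253% in nitrate, with overlapping libraries. P450 genes of the other KOG groups held 0.404 ± 0.0404% and 0.428 ± 0.0525%, also overlapping. A sum can stay level while its members move apart. Among the 77, GL15308-G went from 71.7 to 292 FPKM on average, while GL24524-G, which was not called, went from 374 to 168 FPKM.

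**Figure D1:**
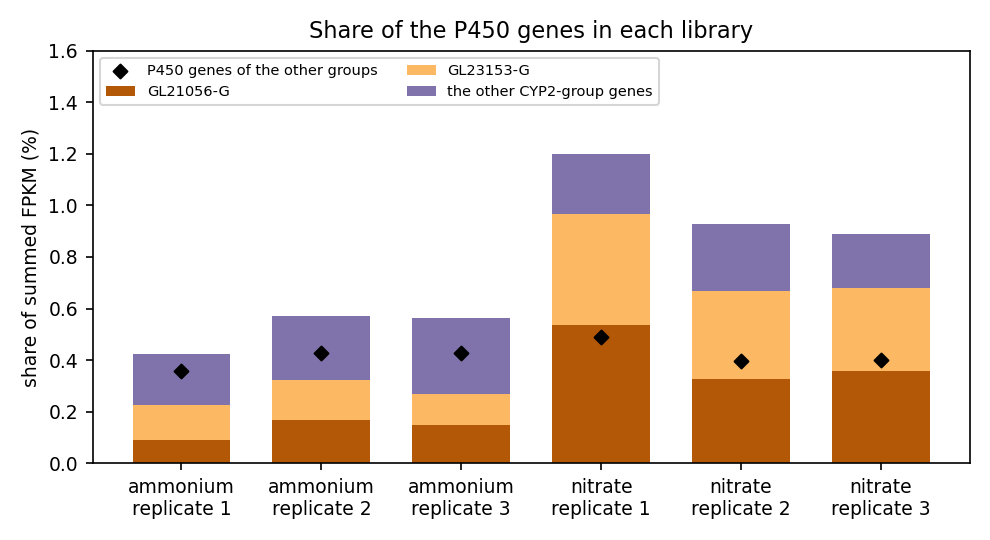
Share of summed FPKM (%) held by the CYP2-group genes in each of the 6 libraries, as stacked bars for GL21056-G, GL23153-G and the other members, with diamonds for P450 genes of the other KOG groups. The bars rise from 0.423% to 0.572% in ammonium to 0.888% to 1.20% in nitrate, while the part of the other members lies at similar heights in both.

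Among the other abundant members, GL28071-G on scaffold 28 was not called, at 349, 679 and 612 FPKM in ammonium and 588, 514 and 367 FPKM in nitrate (adjusted p = 0.764, edgeR). Its groups overlapped, and A1 was the lowest library. GL15098-G on scaffold 10 stood at 276, 272 and 292 FPKM and at 195, 254 and 255 FPKM. The groups lay apart by a small margin, with a log2 fold change of -0.27 ± 0.17 (SE, adjusted p = 0.314). GL31770-G on scaffold 9 was 23.3, 67.7 and 66.1 FPKM in ammonium and 192, 62.4 and 72.1 FPKM in nitrate. The lowest and the highest value came from replicate 1 of each group, the ends of the within-group axis, and the other 4 libraries lay between 62.4 and 72.1 FPKM (adjusted p = 0.235). Without those 2 libraries its log2 fold change was -0.08, and with all libraries it was 1.06.

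GL24524-G, on scaffold 4 at 1793298 to 1795696, was the member nearest to the threshold among those not called. It stood at 313, 272 and 536 FPKM in ammonium and 100, 233 and 170 FPKM in nitrate. The groups did not overlap, but the libraries of each spread widely (log2 fold change -1.18 ± 0.35 SE, adjusted p = 0.0572, edgeR). DESeq2 called it (adjusted p = 0.00621), as did edgeR without A1 (adjusted p = 0.0472). On the other side of the threshold was GL22948-G on scaffold 22, at 4.78 ± 0.605 and 8.22 ± 1.50 FPKM (adjusted p = 0.0427). Its call was lost in 5 of the 6 fits without 1 library, all but that without N2 (adjusted p = 0.0502 to 0.149).

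Of the members that rose, GL15308-G on scaffold 12 had the largest log2 fold change, 2.00 ± 0.36 (SE, adjusted p = 0.0108, edgeR). It stood at 50.6, 61.3 and 103 FPKM in ammonium and 200, 421 and 255 FPKM in nitrate. The lowest nitrate library was above the highest ammonium library. Without A2 its adjusted p was 0.0521. GL21057-G, also on scaffold 12, went from 6.21, 7.04 and 8.63 FPKM to 24.8, 19.7 and 18.3 FPKM (log2 fold change 1.52 ± 0.22 SE), and it had the smallest adjusted p of the members (0.00499).

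GL20706-G, on scaffold 11 at 637928 to 640168, was low but even within groups. It stood at 3.38, 3.74 and 3.00 FPKM in ammonium and 8.22, 7.21 and 8.15 FPKM in nitrate, a log2 fold change of 1.21 ± 0.19 (SE, adjusted p = 0.00665, edgeR). GL31753-G on scaffold 10 was 1.40, 1.25 and 1.31 FPKM in ammonium and 2.44, 3.99 and 4.59 FPKM in nitrate (adjusted p = 0.0103, and 0.0531 without A3). In nitrate its replicate 1 was the lowest, nearest to the ammonium libraries. GL25447-G on scaffold 5 rose from 7.24 ± 1.09 to 14.7 ± 2.64 FPKM, and its call was lost when A2, A3 or N3 was dropped (adjusted p = 0.0507 to 0.0585).

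GL31762-G on scaffold 24 rose from 5.66 ± 0.771 to 11.0 ± 1.06 FPKM (adjusted p = 0.0161). The call was lost when A2, A3, N2 or N3 was dropped (adjusted p = 0.051 to 0.0666). GL16778-G on scaffold 29 rose from 2.15 ± 0.506 to 3.92 ± 0.208 FPKM (adjusted p = 0.0359), and passed in 1 of the 6 fits, that without A1 (adjusted p = 0.0647 to 0.129 in the others). GL22608-G on scaffold 2, singled out once its values were known, rose least among the called members, from 36.2 ± 5.18 to 56.1 ± 7.20 FPKM (log2 fold change 0.61 ± 0.17 SE, adjusted p = 0.0422). It passed only in the fit without N1 (adjusted p = 0.0639 to 0.157 in the other 5).

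**Figure D2:**
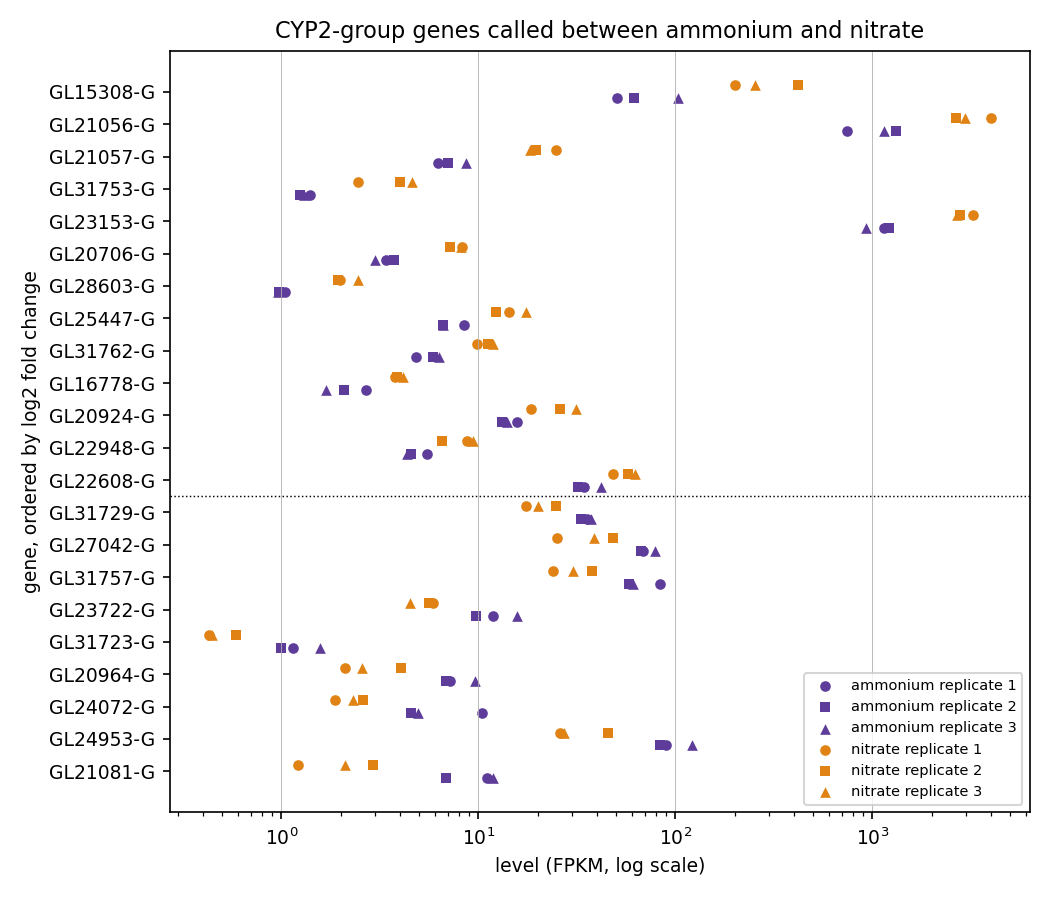
FPKM on a log axis of the 22 called CYP2-group genes in each library, ordered by log2 fold change, with the 13 that rose above the dotted line and the 9 that fell below it. Purple is ammonium and orange is nitrate, and the symbols mark replicates 1 to 3. No gene's groups overlap, and levels run from under 1 FPKM to 3988 FPKM.

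Of the members that fell, GL21081-G had the largest change (log2 fold change -2.26 ± 0.34 SE, adjusted p = 0.00576, edgeR). This short model, on the plus strand of scaffold 12 at 887719 to 888495, stood at 11.1, 6.82 and 11.9 FPKM in ammonium and 1.21, 2.92 and 2.10 FPKM in nitrate. The next model on the same strand, GL15335-G at 889441 to 891803, also a member, starts 945 bp further on. GL15335-G, singled out once its values were known, was 3.32 ± 1.08 and 1.52 ± 0.602 FPKM (log2 fold change -1.13 ± 0.34 SE, adjusted p = 0.0618). Whether the models are parts of 1 gene was not tested.

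GL24953-G, on scaffold 41 at 183527 to 185639, was the most abundant of the called members that fell. It stood at 89.3, 84.0 and 122 FPKM in ammonium and 25.9, 45.8 and 27.1 FPKM in nitrate, a log2 fold change of -1.60 ± 0.26 (SE, adjusted p = 0.0077, edgeR). GL31757-G, on scaffold 19 at 398015 to 400835, was 83.2, 58.1 and 61.0 FPKM and 24.0, 37.9 and 30.2 FPKM (log2 fold change -1.15 ± 0.20 SE, adjusted p = 0.0099). In both genes the highest nitrate library, replicate 2, was well under the lowest ammonium library.

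GL24072-G on scaffold 31 stood at 10.4, 4.55 and 4.92 FPKM in ammonium and 1.87, 2.59 and 2.31 FPKM in nitrate. A1 stood apart from the other two, and the call was lost without N3 (adjusted p = 0.019 and 0.0699). GL20964-G on scaffold 12 fell from 7.89 ± 1.51 to 2.92 ± 1.03 FPKM, and GL23722-G on scaffold 3 from 12.4 ± 2.99 to 5.34 ± 0.727 FPKM. Both lost the call when A3 or N3 was dropped (adjusted p = 0.0506 to 0.0585). GL31723-G, at 112268 to 114569 on scaffold 3, fell from 1.24 ± 0.300 to 0.488 ± 0.0887 FPKM, and passed only without A1 (adjusted p = 0.0508 to 0.0899 in the other 5 fits). Its neighbour GL31724-G, 1458 bp away on the same strand, was not called.

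The members lay on 22 of 82 scaffolds, 47 on the plus and 32 on the minus strand. Scaffolds 3 and 12 held 14 and 16 of them, together 38.0% of the members and 7.28% of all gene models. Scaffold 41, with 81 gene models in the table, held 5. A run was defined as members on the same scaffold with at most 10 kb between neighbours. There were 15 such runs with 37 members, and 42 members lay outside them. In runs 6 of 36 tested members rose and 5 fell, and outside them 7 of 41 rose and 4 fell.

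**Figure D3:**
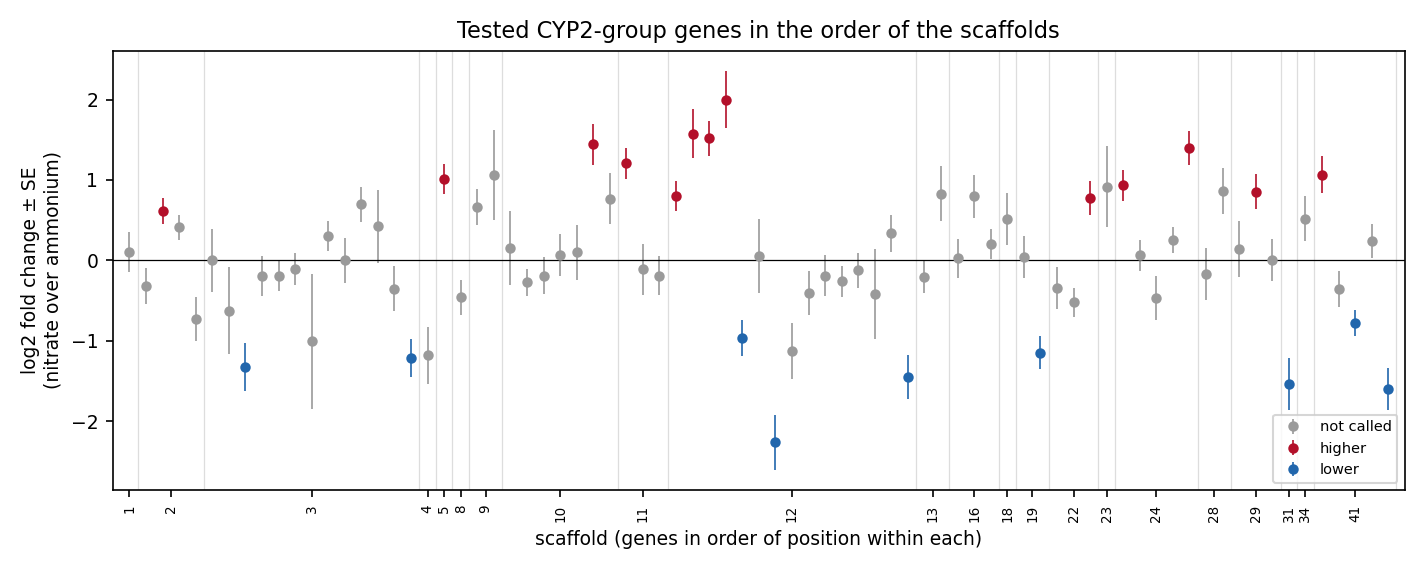
Log2 fold change of nitrate over ammonium with its standard error for the 77 tested CYP2-group genes, in order of scaffold and of position within a scaffold. Red genes rose, blue genes fell and grey genes were not called. Most of the genes on scaffold 3 are grey, and scaffold 12 holds both the largest increase (2.00) and the largest decrease (-2.26).

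Runs of 3 or more members were seen on scaffolds 3, 10, 12 and 41, with no other gene model between the members. The run of 6 on scaffold 3, at 210907 to 227685, had all its members on the plus strand and 504 to 1171 bp between neighbours. No member of it was called by edgeR or DESeq2, and none had an unadjusted p under 0.05 by either. Levels in it differed between adjacent genes. GL31719-G stood at 9.33 ± 1.39 and 8.77 ± 1.84 FPKM, GL31721-G at 5.79 ± 0.719 and 7.23 ± 1.31 FPKM and GL31717-G at 3.62 ± 0.265 and 3.17 ± 0.311 FPKM. GL31722-G was 2.71 ± 0.532 and 2.76 ± 0.928 FPKM, the same level within the spread. GL31720-G had counts of 13, 13 and 14 in ammonium and 4, 0 and 13 in nitrate, and GL31718-G, with 5 to 11 counts per library, was too low to be tested.

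The runs of 3 on scaffold 10 (GL31708-G, GL31776-G and GL31777-G, at 559205 to 567201) and scaffold 12 (GL21085-G, GL31779-G and GL31780-G, at 924919 to 932733) also had 0 calls by edgeR or DESeq2 and 0 unadjusted p under 0.05. Their mean levels over all libraries were 2.27 to 9.91 FPKM and 1.72 to 4.69 FPKM, with log2 fold changes from -0.19 to 0.10 and from -0.40 to -0.19.

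In the run on scaffold 41, at 97725 to 105456, neighbours moved in opposite directions. GL28603-G, on the plus strand, was 1.04, 0.972 and 0.965 FPKM in ammonium and 1.98, 1.93 and 2.45 FPKM in nitrate, a log2 fold change of 1.07 ± 0.22 (SE, adjusted p = 0.0189, edgeR). GL31729-G, on the minus strand, was 35.7, 33.2 and 37.1 FPKM and 17.4, 24.7 and 20.1 FPKM (log2 fold change -0.78 ± 0.16 SE, adjusted p = 0.0174). GL31728-G between them, on the minus strand, was not called at 4.00 ± 0.669 and 3.16 ± 0.607 FPKM (adjusted p = 0.309). Both calls were lost when A2, A3 or N3 was dropped (adjusted p = 0.0623 to 0.0822). The low gene rose and the abundant one fell, and the groups of neither overlapped.

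With up to 20 kb between neighbours, a stretch of 46.05 kb on scaffold 12, at 380628 to 426677, held 5 members, and all 5 were called. The stretch was singled out after its values were seen, as the run with most members among those whose members were all called. That all 5 were called was therefore fixed by the choice. In order the members were GL20924-G, GL21056-G, GL21057-G, GL15308-G and GL27042-G, and the first 4 rose while the last fell. Over the whole of scaffold 12, 16.8% of tested genes were called. GL20924-G, singled out once its values were known, stood at 15.6, 13.2 and 14.0 FPKM in ammonium and 18.5, 25.9 and 31.2 FPKM in nitrate, a log2 fold change of 0.80 ± 0.19 (SE, adjusted p = 0.027, edgeR). Its call was lost when A2, A3, N2 or N3 was dropped (adjusted p = 0.0793 to 0.105). The 4 members that rose spanned levels from that of GL21057-G, under 25 FPKM in every library, to that of GL21056-G, among the most abundant transcripts of the table.

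GL15308-G and GL27042-G end against each other on opposite strands, with 2 bp in common, and moved in opposite directions. GL27042-G was 68.6, 67.2 and 79.2 FPKM in ammonium and 25.2, 48.1 and 38.8 FPKM in nitrate, a log2 fold change of -0.96 ± 0.22 (SE, adjusted p = 0.0261, edgeR). In ammonium both genes stood at 71.7 FPKM on average, and in nitrate GL15308-G stood at 292 ± 115 and GL27042-G at 37.4 ± 11.5 FPKM. The call of GL27042-G was lost when A2, A3 or N3 was dropped (adjusted p = 0.0775 to 0.1).

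Between the members of the stretch lay 8 other gene models. In 4 of them, all between GL21056-G and GL21057-G, every library had a count of 0, so that they were not tested. Of the other 4, edgeR called 0 higher and 1 lower, the same counts as by DESeq2, and at an unadjusted p under 0.05 there were 0 higher and 1 lower. The lower one was GL21003-G, next to GL21057-G, with identifiers for a structural constituent of the fungal cell wall, at 82.0 and 16.6 FPKM (log2 fold change -2.32, adjusted p = 0.00253). It passed in each of the 6 fits without 1 library. Genes of the CYP4/CYP19/CYP26 group of P450 enzymes stood on both sides of the stretch. GL15302-G, upstream, was lower at 16.3 and 7.99 FPKM (adjusted p = 0.0262), a call lost when A2, A3, N2 or N3 was dropped (adjusted p = 0.0716 to 0.0961). Both it and GL21003-G were named after their values were seen. Of the same P450 group, GL15309-G and GL31754-G, beyond GL27042-G, were not called.

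**Figure D4:**
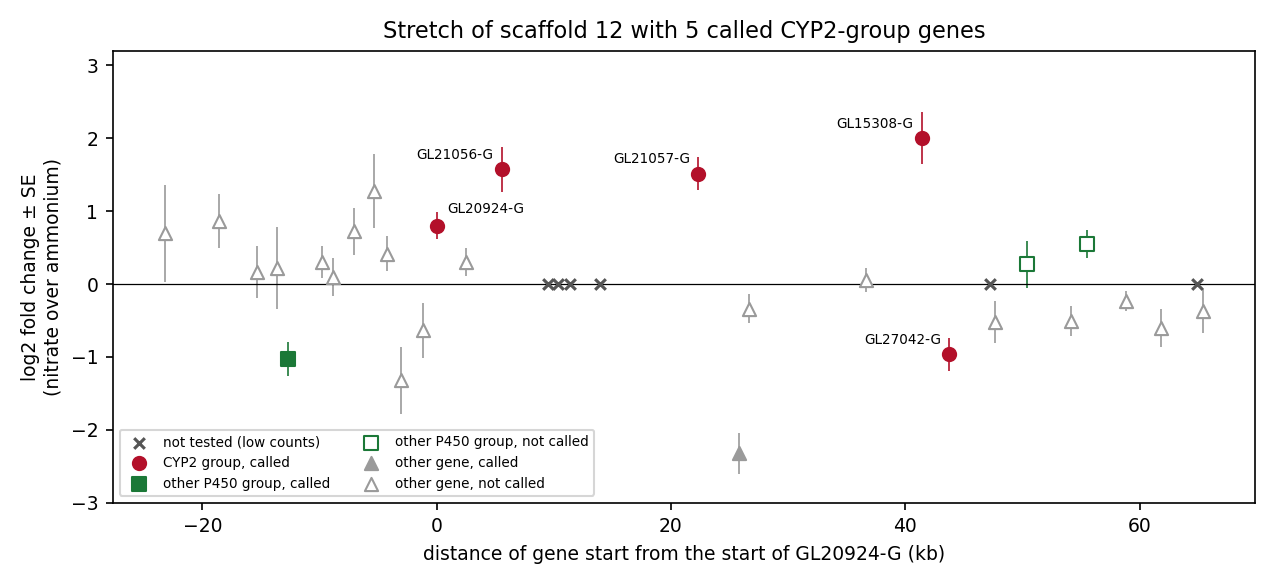
Log2 fold change with its standard error of each gene on a stretch of scaffold 12 and within 20 kb on either side, by the distance (kb) of its start from that of GL20924-G. Circles are CYP2-group genes, squares other P450 genes and triangles other genes, filled where called, and crosses on the zero line are genes too low to be tested. The first 4 circles lie from 0.80 to 2.00 and the last at -0.96. The 21 open symbols lie on both sides of 0, from -1.32 to 1.27, so that some reach as far as the called members.

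Models of 6 members overlap another in the table by at least 1 base. Besides GL23153-G, GL15308-G and GL27042-G, these are GL15091-G, GL21663-G and GL23557-G, each with a model on the opposite strand, and none of these 3 was called. Their neighbours GL18246-G, at 51.9 ± 3.13 and 93.8 ± 21.7 FPKM, GL21666-G, at 51.1 ± 5.66 and 41.1 ± 9.41 FPKM, and GL23555-G, at 39.9 ± 6.10 and 61.9 ± 7.81 FPKM, were more abundant than these members. Of these neighbours, GL18246-G and GL23555-G were called higher in nitrate (adjusted p = 0.0193 and 0.0307, edgeR), and GL21666-G was not called. Reads in the shared bases can be told apart only if counting used strand, which is not given.

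The counts by annotation that follow are small and stand beside 16.9% higher and 11.7% lower over all tested members. The 21 members with the identifier for steroid hydroxylase activity included 6 that rose and 2 that fell of 19 tested (31.6% and 10.5%), with a median log2 fold change of 0.41. The abundant GL23153-G was among those that rose. Of the 36 tested members with the identifier for an integral membrane protein, 7 rose (19.4%) and 1 fell (2.78%), that being GL27042-G, with a median of 0.03. The 21 members with the identifier for a membrane-bounded organelle were all tested and included GL21056-G among 2 that rose (9.52%), while 4 fell (19.0%). The 6 members with the KEGG entry K07408, of the animal CYP1A1, had 1 that rose (GL31753-G) and 0 that fell. The 4 with K00512, of the animal steroid 17-alpha-hydroxylase, had 0 that rose and 2 that fell (GL23722-G and GL20964-G). GL31770-G and GL20970-G, with the same entry, were not called, at log2 fold changes of 1.06 and 0.34.

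The remaining members were not called. GL31778-G on scaffold 12 had a count of 0 in every library, which allows up to 0.109 to 0.150 per 1000000 counts, and this limit covers counting error only. Of the 55 tested members without a call, 39 fell outside the rule for named genes. Their mean level was 35.2 FPKM at most and their adjusted p was 0.0618 or more. DESeq2, which called 20.9% of the genes it tested, called all 22 members that edgeR called and 6 further ones. Besides GL24524-G and GL15335-G these were GL23926-G, GL31769-G and GL28081-G, which were higher, and GL22978-G, which was lower. By edgeR, the 5 other than GL24524-G had adjusted p from 0.0618 to 0.0834.

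A list of 10 genes for the electron supply to P450 enzymes was fixed by KOG names. It held NADP/FAD-dependent oxidoreductases (a family that includes the P450 reductase), NADH-cytochrome b5 reductases and cytochrome b5. Of the 10, edgeR called 0 higher and 1 lower, or 10%, where 15.6% of all tested genes were called. DESeq2 called 0 higher and 3 lower, where it called 20.9% of all, and at an unadjusted p under 0.05 edgeR had 0 higher and 4 lower. The 1 called gene, GL20411-G on scaffold 9, is annotated otherwise than the list's name says. Its identifiers are for NADPH sulfite reductase and sulfate assimilation, and it lacks the one for hemoprotein reductase that the other 5 of the 6 oxidoreductases of that family carry. It was 17.2, 14.8 and 19.3 FPKM in ammonium and 4.16, 4.62 and 4.40 FPKM in nitrate, a log2 fold change of -1.97 ± 0.16 (SE, adjusted p = 0.000553). Its groups lay far apart, and it passed in each of the 6 fits without 1 library. The form of nitrogen and the sulfate of the ammonium salt cannot be told apart in these groups. Of the other oxidoreductases of that family, GL20687-G, GL19267-G, GL24199-G and GL17184-G also carry the identifiers for heme and iron binding that stood on all 79 members. GL19526-G carries neither. Whether genes with both identifiers are P450 enzymes themselves was not tested, so the list may not be of electron supply alone. Among the 9 genes other than GL20411-G, edgeR called 0 higher and 0 lower, with 0 and 3 at an unadjusted p under 0.05, and DESeq2 called 0 and 2. The median log2 fold change of the 10 was -0.53, where that of all tested genes was 0.01, and 9 of the 10 were below 0. Groups did not overlap in 5 of the 10, all lower in nitrate, where 37% of all tested genes had such groups. The most abundant of the 10, the cytochrome b5 GL31224-G and the oxidoreductase GL19526-G, stood at 744 ± 90.1 and 698 ± 110 FPKM and at 631 ± 135 and 621 ± 215 FPKM, with groups that overlapped.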

How the data were processed

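RNA was sequenced on the Illumina platform after mRNA isolation, per the labels' protocols, in 6 samples grouped by their titles. The authors deposited raw read counts per gene, with TPM and FPKM values that they computed, per the file headers. Of the aligner, counter, annotation and strand setting, the sources used here say nothing. Positions are on scaffolds whose names begin with GaLu96, and no genome was used, so exons, introns and sequences are not shown. Deposited TPM values were not used.

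Counts were tested with edgeR 4.0.16 (R 4.3.3; TMM factors, filterByExpr, robust quasi-likelihood F test, no covariates) on all 11993 genes that passed the filter, of 16113, with Benjamini-Hochberg adjustment. Standard errors were derived from the F statistic. The fit left 4 residual degrees of freedom, at a biological coefficient of variation of 0.248. Alternatives were RLE factors, no filter, DESeq2 1.42.0, a minimum of 50 counts in 3 libraries, limma-trend (limma 3.58.1) on log2(FPKM + 1) and log2(FPKM + 0.1) for genes of at least 1 FPKM in 3 libraries, a replicate block, each library left out, and runs with gaps of 5 or 20 kb. The steps were tested on simulated data.

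Named were the 10 largest called increases and decreases (9 existed), the 8 highest mean levels, members of runs of 3 or more, the members next to the threshold and called electron-supply genes. The members and lists were chosen with earlier results of these data known.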

Additional observations from a re-analysis of the deposited data

How the results depend on the processing

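Counts of calls were within 1.5 times the reported ones with RLE factors, without a filter on low counts, with at least 50 counts in 3 libraries, and in both limma fits, and also by DESeq2 except for the electron-supply genes (3 lower). Without 1 library, the CYP2 group had 4 to 12 higher and 3 to 10 lower, the other P450 groups 7 to 14 and 9 to 17, the electron-supply genes 0 and 1 to 3, and all genes 273 to 910 and 382 to 1036. Without both A1 and N1, added after seeing the data, there were 22 higher in the CYP2 group, 29 lower in the other P450 groups, 7 lower electron-supply genes, and 2364 higher and 2534 lower genes in all. The cause was not tested.

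Same-numbered libraries deviated in opposite directions (r = -0.66, -0.35 and -0.46 across genes). The labels give no pairing. With 3 libraries per group and 63.9% of the within-group variance on 1 axis, these values cannot decide whether the numbers pair the samples. With the replicate number as a block, 0 CYP2-group genes were called higher and 0 lower by edgeR (16 and 12 at an unadjusted p under 0.05, and 16 and 12 called by DESeq2 without a block), against 4 and 6 of the other P450 groups and 85 and 140 of all genes. Runs held 33 members with gaps of 5 kb and 45 with 20 kb.

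None of the genes named with a call changed sign in any of these fits. Among genes without a call, the log2 fold change of GL31722-G, 0.0013 as reported, was -0.0059 by DESeq2, -0.0012 with RLE factors, -0.0186 and -0.0046 by limma with pseudocounts of 0.1 and 1, -0.0035 without a filter, -0.0269 with the block and -0.138 to 0.228 without 1 library. Without both A1 and N1, GL31770-G was at -0.0805, GL31719-G at 0.0248, GL31776-G at -0.0631 and GL31779-G at 0.0573. Without 1 library, GL28071-G ranged from -0.443 to 0.045, GL31719-G from -0.198 to 0.0234, GL31776-G from -0.155 to 0.246 and GL31777-G from -0.214 to 0.454. Members under 1 FPKM are limited most by depth.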
